A study of Rattus norvegicus with 14 samples.

Results

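The genes followed here are 9 that astrocytes use to take up glutamate, potassium and water: Slc1a2, Slc1a3, Glul, Kcnj10, Aqp4, Gja1, Gjb6, Slc4a4 and Aldh1l1. They were chosen by name for what their products do, with earlier results of these data known. All 9 have values in both tables, among 18238 gene symbols listed for neurons and 31789 for astrocytes. RNA was sequenced from primary hippocampal cultures of embryonic day 18 Sprague Dawley rats, made either as neurons or as astrocytes that were enriched from mixed glia by shaking. Every library came from supplement-reduced aging-model medium (AM), so none of the libraries is from full medium. AM was a different medium in each kind of culture. For neurons it was Neurobasal with less of its supplement and no serum listed, and for astrocytes a DMEM-based medium with serum. Base medium and serum thus differ along with cell type wherever the cultures are compared. Neurons on day 10 of culture had 4 h of AM and then 16 h of vehicle (AM-Veh, a trace of ethanol) or of 100 nM allopregnanolone, a neurosteroid, here Allo (AM-Allo). Astrocytes had 24 h of AM, in which the serum was charcoal-stripped, and then 24 h of vehicle or of 100 nM Allo. There were 4 AM-Veh and 4 AM-Allo neuron libraries, numbered 1-1, 1-2, 2-1 and 2-2, and 3 AM-Veh and 3 AM-Allo astrocyte libraries, numbered 1 to 3. The 2 questions put to the genes were how mature the astrocytes of each kind of culture looked by them, and whether Allo moved them.

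Astrocytes clear the glutamate that neurons release through GLAST (Slc1a3) and GLT-1 (Slc1a2), and glutamine synthetase (Glul) turns it into glutamine that is handed back. The inward rectifier Kir4.1 (Kcnj10) carries potassium away from active neurons, the water channel aquaporin 4 (Aqp4) sits at the endfeet around vessels, and connexins 43 (Gja1) and 30 (Gjb6) join astrocytes into a network. The sodium bicarbonate cotransporter NBCe1 (Slc4a4) couples uptake to the control of pH, and the folate enzyme encoded by Aldh1l1 is a broad marker of the cell type. GLT-1, Kir4.1 and connexin 30 are known to appear late in astrocyte development, while GLAST is already present in radial glia. Contact with neurons is known to raise GLT-1 in cultured astrocytes.

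The values are normalized counts, that is, reads per gene after the authors' scaling between libraries. By estimate, 1 read was worth 0.884 to 1.13 of them in neurons and 0.842 to 1.07 in astrocytes. Libraries held an estimated 19700000 to 24900000 reads in neurons and 22100000 to 28500000 in astrocytes. Both labels were checked against markers. The libraries labelled as neurons expressed neuron genes (Map2 at 24729 ± 682, SD, n = 4, and Dcx at 12383 ± 449 in AM-Veh) but also the astrocyte gene Gfap at 94233 ± 22406 and the oligodendrocyte-lineage genes Olig1 at 14684 and Olig2 at 8969, so they are mixed cultures. The libraries labelled as astrocytes had Gfap at 135934 ± 4332 (SD, n = 3 in AM-Veh). Their neuron markers were uneven: Rbfox3, Slc17a7 and Nefl were each below 2 counts on average and Gad2, Syt1 and Tubb3 at 8.72 to 32.2, but Dcx was at 114, Map2 at 3873 ± 192 and the GABA-synthesizing enzyme Gad1 at 1803 ± 83.4, against 1254 ± 159 in AM-Veh neuron libraries. They also held the mesenchymal genes Col1a1 at 23505 ± 2058, Col1a2 at 29769, Acta2 at 8296 and Pdgfrb at 3944. The mesenchymal genes Dcn and Lum went the other way, at 5.86 and 8.11 against 183 and 11.9 in AM-Veh neuron libraries. The microglial gene Csf1r was lower, at 333, against 3.58 in AM-Veh neuron libraries. In such bulk RNA, fewer astrocytes and less of a transcript per astrocyte cannot be told apart, nor can the cells that hold a transcript be named. Nothing in the labels says that the libraries of a group came from separate dissections, and neuron libraries that share the first part of their number were closer to each other than to the rest (chi-square per gene 2.24 to 3.30, against 9.43 to 13.9 across first parts). Among astrocyte libraries, AM-Allo 3 lay apart from AM-Allo 1 and 2 (7.72 and 8.28), where the other pairs within a group were at 3.07 to 4.85. P-values therefore measure the spread between these libraries, which may be technical.

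**Figure D1:**
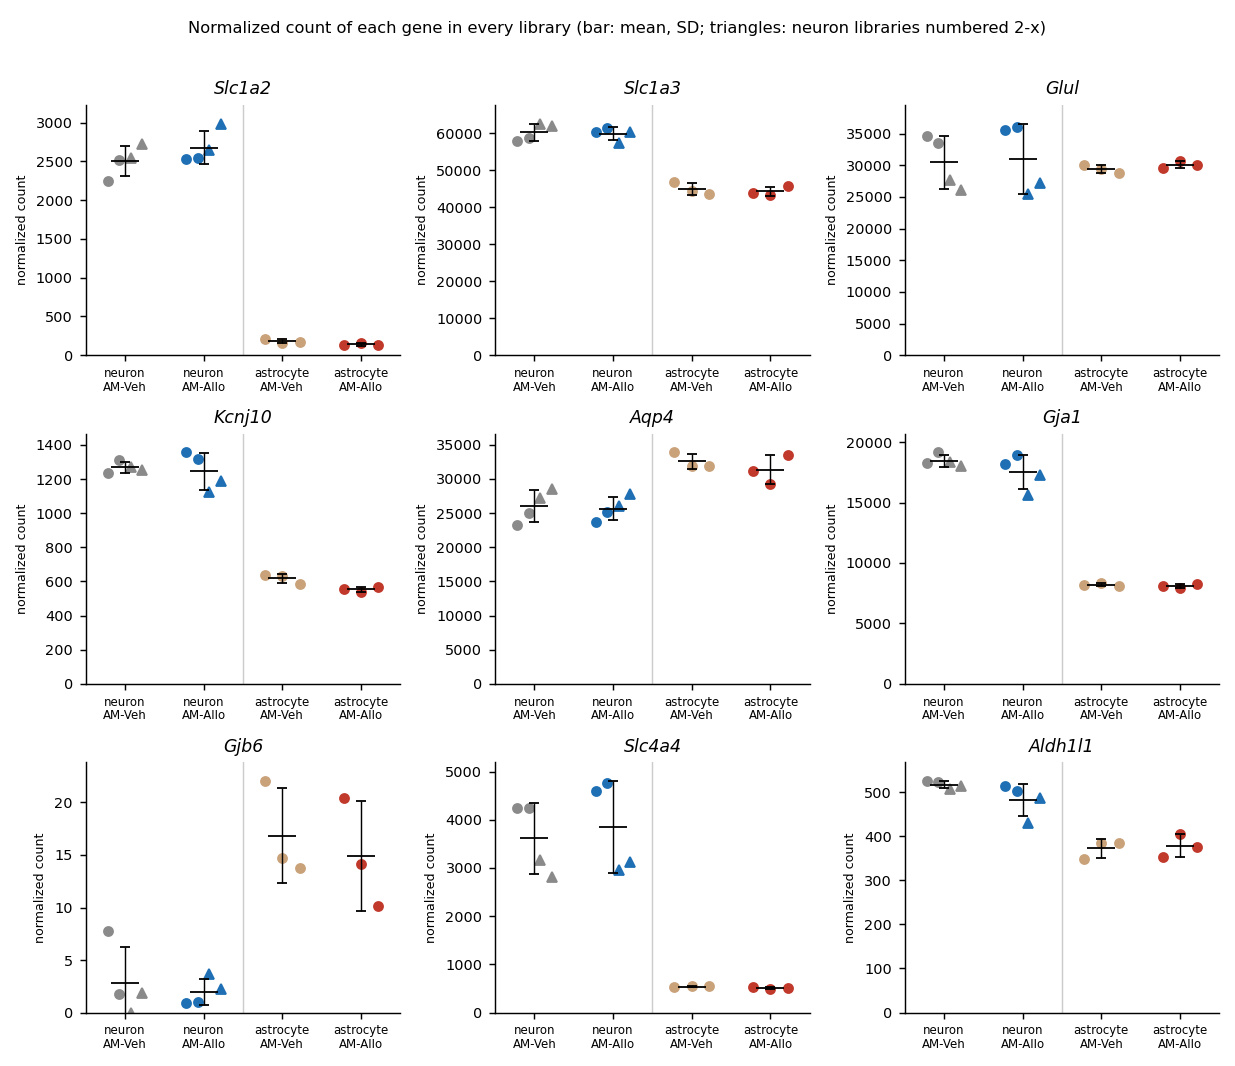
Normalized counts of the 9 genes (vertical axes, each from 0) in every library of the 4 groups, with mean and SD as black bars and triangles for the neuron libraries numbered 2-x. Slc1a2 and Slc4a4 sit far lower in astrocyte cultures than in neuron cultures, and Glul and Slc4a4 split by the first part of the number in neurons. Gjb6 is low in both, at 0 to 7.8 counts in neuron libraries and 10.2 to 22.04 in astrocyte libraries.

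The clearest contrast between the cultures was in GLT-1. Slc1a2 stood at 2251, 2512, 2541 and 2718 normalized counts in the AM-Veh neuron libraries 1-1, 1-2, 2-1 and 2-2, and at 210, 163 and 169 in the 3 AM-Veh astrocyte libraries. The lowest neuron library was thus far above the highest astrocyte library. Because the tables were normalized separately, no test was made across them, and levels were set side by side after division by the geometric mean of 4 astrocyte identity genes of the same library (Gfap, S100b, Sox9 and Aldoc). On that scale Slc1a2 was 15.4-fold higher in the neuron cultures, at 18.9% ± 0.718 (SD, n = 4) of the identity mean against 1.23% ± 0.146 (SD, n = 3). On the log2 scale this is a difference of 3.94, and it was 3.91 relative to the total counts of the library, 3.81 with Gfap left out of the identity genes and 3.38 (10.4-fold) per Slc1a3. The identity genes did not share a direction: relative to their own mean, S100b was higher by 1.99 on the log2 scale in neuron cultures and Gfap, Sox9 and Aldoc lower (−0.42, −0.72 and −0.85).

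Slc4a4 came next. It was at 4241, 4237, 3164 and 2815 normalized counts in the AM-Veh neuron libraries 1-1, 1-2, 2-1 and 2-2 and at 526, 547 and 542 in astrocytes, 7.30-fold higher in neuron cultures per identity genes and 4.94-fold per Slc1a3. Kcnj10 and Gja1 differed by less. Kcnj10 ran from 1237 to 1309 in the AM-Veh neuron libraries and from 587 to 638 in the astrocyte libraries, a 2.26-fold difference per identity genes and 1.53-fold per Slc1a3. Gja1 ran from 18029 to 19149 and from 8104 to 8317, or 2.48-fold and 1.68-fold. These 4 genes kept their direction on all 4 scales, with no overlap between the libraries of the cultures. The share of all genes without overlap between the cultures is not given here, so a lack of overlap cannot be called particular to these genes.

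The remaining genes above the floor differed by at most 1.53-fold per identity genes. Slc1a3, at 60228 ± 2316 (SD, n = 4) in neurons and 45007 ± 1657 (SD, n = 3) in astrocytes, was 1.48-fold higher in neuron cultures per identity genes, with no overlap there or on the 2 other scales not set by Slc1a3 itself. Aldh1l1, at 517 ± 8.31 and 373 ± 21.4, was 1.53-fold higher on that scale, with no overlap on 3 of the 4 scales, and overlapped between cultures per Slc1a3 (1.04-fold). Glul, at 30472 ± 4212 and 29424 ± 696, overlapped on 3 scales and was lower in neuron cultures per Slc1a3 (log2 difference −0.38). Aqp4 was the only one of the 8 genes compared that was higher in astrocyte cultures on all 4 scales, with no overlap, 1.14-fold per identity genes and 1.68-fold per Slc1a3 (25995 ± 2329 in neurons and 32571 ± 1135 in astrocytes). Connexin 30 was near the floor in both: Gjb6 was at 7.8, 1.7, 0 and 1.9 counts in the AM-Veh neuron libraries and at 22.04, 14.7 and 13.8 in astrocytes, and no fold is given. Of the 8 genes compared, 7 were higher in neuron cultures per identity genes, with a median log2 difference of 0.90, where the median over 14373 genes was 0.14. Slc1a2 and Slc4a4 lay past 2 on the log2 scale, as did 13.9% of all genes in either direction.

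**Figure D2:**
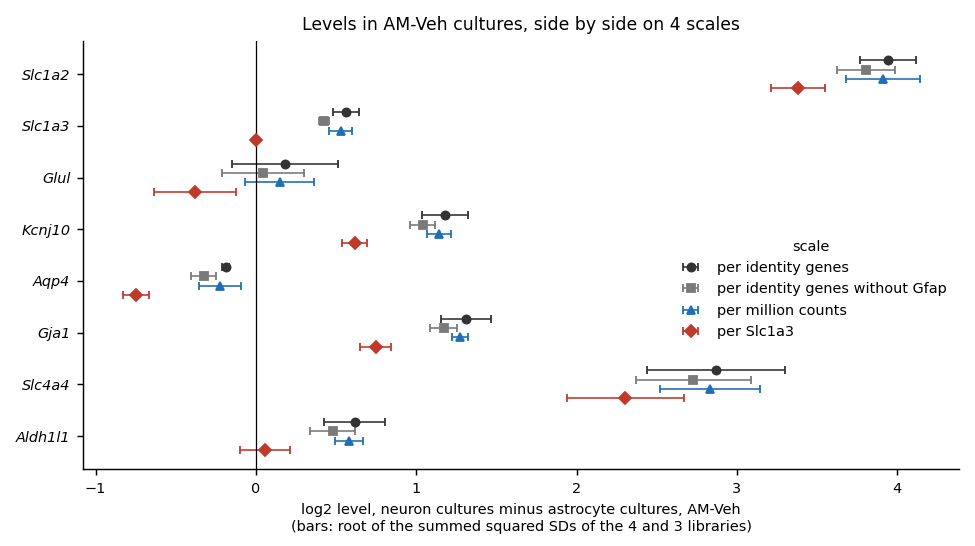
Log2 difference in level between neuron and astrocyte cultures under vehicle (horizontal axis) for the 8 genes above 10 counts in both, on 4 scales, with bars for the spread of the 4 and 3 libraries combined. Slc1a2 and Slc4a4 lie far to the right on every scale, Aqp4 lies to the left on every scale, and division by Slc1a3 moves all genes to the left.

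The balance of the late and the early glutamate transporter does not depend on how libraries are scaled. For each 100 counts of Slc1a3 there were 3.90 to 4.38 counts of Slc1a2 in AM-Veh neuron libraries (4.16 ± 0.216, SD, n = 4) and 0.366 to 0.448 in AM-Veh astrocyte libraries (0.400 ± 0.0428, SD, n = 3). Transcript length enters both sides alike, so the 10.4-fold gap in this ratio compares libraries and not the amounts of the transporters. The neuron cultures were mixed, so the ratio there need not be that of their astrocytes alone. This ratio was chosen after its values were seen. Under Allo it was 4.48 ± 0.381 (SD, n = 4) in neurons and 0.318 ± 0.0438 (SD, n = 3) in astrocytes, and two-sided exact permutation tests of the change gave p = 0.229 and p = 0.2.

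The 2 genes that differed most between the cultures, and the one that fell with Slc1a2 under Allo in astrocytes, are shown by the 250 bases before their annotated start, 5′ to 3′ on the strand of the gene (RefSeq, GRCr8, an assembly later than the one the authors used). The windows are chr3:109459859-109460108 on the plus strand for Slc1a2, the first of its 2 starts in the table, chr14:19468283-19468532 on the minus strand for Slc4a4 and chr13:87334260-87334509 on the plus strand for Kcnj10. Capitals mark matches to the half-site of the NFI factors of astrocyte development, TTGGC on either strand, which 40.3% of 33469 rat promoter windows of the whole table hold. The CREB half-site TGACG (18.2% of windows) and the SOX core ACAAT (30.0% of windows) were searched on both strands as well.
Slc1a2: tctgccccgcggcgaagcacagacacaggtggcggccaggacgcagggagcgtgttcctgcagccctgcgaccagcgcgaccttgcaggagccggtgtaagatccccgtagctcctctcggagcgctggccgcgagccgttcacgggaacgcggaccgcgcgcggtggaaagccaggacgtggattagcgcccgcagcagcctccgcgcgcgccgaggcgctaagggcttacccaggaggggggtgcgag
Slc4a4: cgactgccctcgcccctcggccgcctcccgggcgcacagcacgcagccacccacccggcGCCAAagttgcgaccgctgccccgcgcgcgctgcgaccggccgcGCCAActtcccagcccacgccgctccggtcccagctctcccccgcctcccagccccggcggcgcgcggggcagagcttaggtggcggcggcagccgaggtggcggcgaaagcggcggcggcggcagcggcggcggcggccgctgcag
Kcnj10: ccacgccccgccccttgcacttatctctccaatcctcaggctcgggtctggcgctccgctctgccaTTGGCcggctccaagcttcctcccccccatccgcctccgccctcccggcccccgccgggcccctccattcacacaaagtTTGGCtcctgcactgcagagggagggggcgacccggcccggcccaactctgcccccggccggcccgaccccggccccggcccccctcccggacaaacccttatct
The Slc4a4 and Kcnj10 windows each hold 2 NFI half-sites and the Slc1a2 window none, and none of the 3 holds a CREB half-site or a SOX core. The windows are rich in G and C, at 71.2%, 80.8% and 72.4%. A match is a description of letters, and binding was not measured.

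Genes of astrocyte maturation split in the same comparison. Of 20 genes listed as mature astrocyte markers, 19 were above 10 counts in both cultures, and 13 of these were higher in neuron cultures per identity genes (median log2 difference 0.65, against 0.14 over all genes). List counts between cultures go by the sign of the difference in means, whether or not libraries overlapped. The share of all genes higher in neuron cultures is not given here, and these counts are a description. The NMDA receptor subunit Grin2c (327 counts in neurons and 18.4 in astrocytes under vehicle), the BMP receptor Bmpr1b (437 and 37.9), the thyroid hormone transporter Slco1c1 (1471 and 142) and the acyl-CoA synthetase Acsbg1 (13622 and 1825) were among them, and the amino acid transporter Slc7a10 was at 850 and 2.79. The direction was not shared by all: clusterin (Clu, 8383 and 127319), the endfoot protein Mlc1 (11925 and 51321) and the urea transporter Slc14a1 (2027 and 7339) were higher in astrocyte cultures. Of the 12 genes of immature or dividing astroglia, 7 were higher in astrocyte cultures (median log2 difference −0.24). Vimentin (Vim) was at 34532 ± 7187 (SD, n = 4) in neurons and 399002 ± 13122 (SD, n = 3) in astrocytes, Pax6 at 378 and 2179 and Prom1 at 70.9 and 470, whereas Fabp7 (50637 and 24509) and nestin (Nes, 13477 and 6862) were higher in neuron cultures. Aldoc is on the mature list and also among the identity genes. Relative to total counts, 13 of 19 mature and 5 of 12 immature genes were higher in neuron cultures. Per Slc1a3 the counts were 11 of 19 mature and 2 of 12 immature genes higher in neuron cultures. Several of these genes are also expressed by the other cells that the markers show, Vim by mesenchymal cells and Fabp7 and Nes by progenitors, and their part in the result was not tested. The 6 mesenchymal markers summed to 2534 to 2962 CPM (normalized counts scaled to the library total) in AM-Veh astrocytes and 29.7 to 62.4 in AM-Veh neurons, and the 9 oligodendrocyte-lineage markers to 166 to 173 and 1730 to 1960. Of the mesenchymal markers, Dcn and Lum were each under 10 counts on average in AM-Veh astrocytes. Microglial markers with an entry summed to 56.1 to 71.4 CPM in AM-Veh astrocytes and 1.09 to 1.38 in AM-Veh neurons. Endothelial markers with an entry summed to 42.8 to 47.8 and 2.18 to 5.74 CPM.

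**Figure D3:**
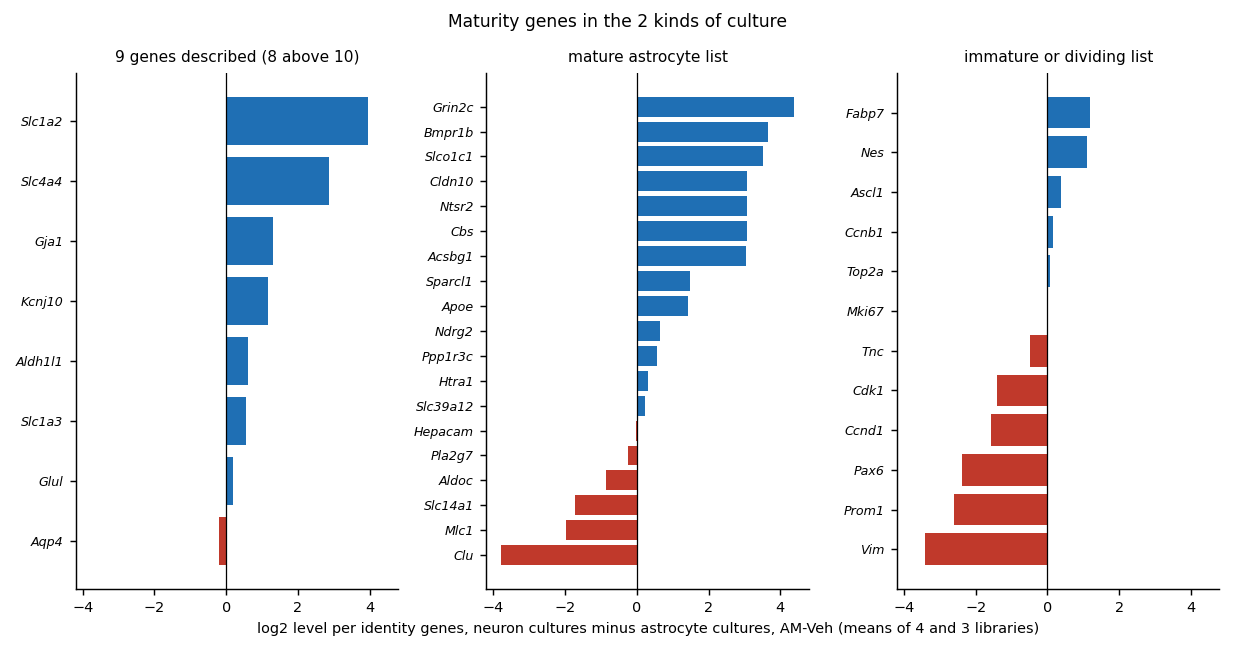
Log2 difference in level per astrocyte identity genes, neuron minus astrocyte cultures under vehicle, for the genes described and for the lists of mature and of immature or dividing astroglia (bars: means of 4 and 3 libraries). Bars run to both sides in each list, with 13 of 19 mature genes to the right and 7 of 12 immature genes to the left.

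The wider pathways gave further contrasts between the cultures. In the glutamate cycle 8 of 10 genes compared were higher in neuron cultures per identity genes (median log2 difference 1.45), among them the cystine-glutamate exchanger Slc7a11 (6242 and 92.6 counts), the glutamine transporter Slc38a3 (10651 and 657), the neuronal glutamate transporter Slc1a1 (2401 and 168) and glutamate dehydrogenase (Glud1, 19120 and 6037). The potassium list was divided, with 5 of 7 genes higher in astrocyte cultures, among them Fxyd1, a regulator of the sodium pump (224 and 2123), and the potassium channel Kcnk2 (146 and 816). The Kir4.1 partner Kcnj16 was at 75.6 and 2.03. Of the water and endfoot genes 8 of 12 were higher in astrocyte cultures, Mlc1 most. Folate enzymes were higher in neuron cultures for 7 of 9 genes, with Mthfd2 at 568 and 75.0. Slc4a10 (1515 and 243) and carbonic anhydrase 2 (Car2, 2119 and 379) had the same direction as Slc4a4 among 5 of 9 acid and bicarbonate carriers. Of 5 connexin and junction genes, the channel Panx1 (885 and 98.9) was higher in neuron cultures, Gjb2 (50.3 and 53.3) and Gjd2 (89.0 and 148) overlapped per identity genes, and Gjc1 (284 and 517) and Tjp1 (6162 and 9842) were higher in astrocyte cultures by less than 1 on the log2 scale. Gjd2 was higher in astrocyte cultures without overlap on the other 3 scales. Most regulators of astrocyte fate were higher in astrocyte cultures, 7 of 8 compared, with Zbtb20 at 484 and 1279 and Nfia at 1671 and 3475. The 8 include Sox9, which is also among the identity genes, and relative to total counts the number was 7 as well. Hes5, a Notch target of progenitors, went the other way, at 572 and 1.09, and was too low in astrocytes to be counted.

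In astrocytes, the transcripts of GLT-1 and Kir4.1 were lower in AM-Allo than in AM-Veh at the study's threshold of an unadjusted p of 0.05. Slc1a2 was at 210, 163 and 169 counts in AM-Veh libraries 1, 2 and 3 and at 129, 160 and 133 in AM-Allo. The groups did not overlap, but AM-Allo 2 lay just below AM-Veh 2. The log2 fold change was −0.36 ± 0.14 (SE; 95% interval −0.65 to −0.063, 3 against 3, unadjusted p = 0.0211 and adjusted p = 0.654 by limma). Kcnj10 was at 638, 631 and 587 in AM-Veh and at 555, 540 and 566 in AM-Allo, again without overlap, for a log2 fold change of −0.16 ± 0.062 (SE; −0.29 to −0.025, unadjusted p = 0.0234 and adjusted p = 0.656 by limma). At 3 libraries against 3 the exact permutation test cannot go below p = 0.1, its value for both genes. Of 15379 genes tested, 7.01% passed the unadjusted threshold and 0.0065% the adjusted one, beside 2 of 9 genes here, and neither of the 2 passed adjustment. Groups did not overlap for 2 of 9 genes and for 12.5% of all genes.

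Both calls rested on single libraries. Without AM-Veh 1, Slc1a2 had a log2 fold change of −0.24 (unadjusted p = 0.118 by limma) and Kcnj10 of −0.14 (unadjusted p = 0.0804). Slc1a2 also missed the threshold without AM-Allo 1 (unadjusted p = 0.0708) or AM-Allo 3 (unadjusted p = 0.0540), and Kcnj10 without AM-Veh 2 (unadjusted p = 0.0724) or AM-Allo 2 (unadjusted p = 0.0633).

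The other 7 genes did not pass the test in astrocytes. Their log2 fold changes were between −0.19 for Gjb6, whose interval ran from −0.96 to 0.58 at 10.2 to 22.04 counts, and 0.031 for Glul. Intervals were narrow for abundant genes: Slc1a3 at −0.023 (−0.11 to 0.061), Glul at 0.031 (−0.043 to 0.11), Gja1 at −0.019 (−0.091 to 0.052) and Aqp4 at −0.058 (−0.16 to 0.044). Aqp4, at 33882, 31922 and 31909 in AM-Veh and at 31206, 29243 and 33499 in AM-Allo, passed without AM-Allo 3 (log2 fold change −0.11, unadjusted p = 0.0305). Slc4a4 was at 538 ± 11.2 (SD, n = 3) and 512 ± 27.2 (SD, n = 3), and Aldh1l1 at 373 ± 21.4 and 379 ± 25.9. The median log2 fold change of the 9 was −0.058, with 2 above 0, beside 0.0014 over all genes. All 4 identity genes were also below 0 (−0.0074 to −0.088), and S100b passed the test (log2 fold change −0.088, unadjusted p = 0.0371 and adjusted p = 0.691 by limma). As a percentage of the identity mean, Kcnj10 overlapped between groups, at 4.05 to 4.38 in AM-Veh and 3.76 to 4.06 in AM-Allo. Slc1a2 did not overlap there, at 1.13 to 1.40 and 0.909 to 1.11. The part of astrocyte content in the falls was not tested.

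**Figure D4:**
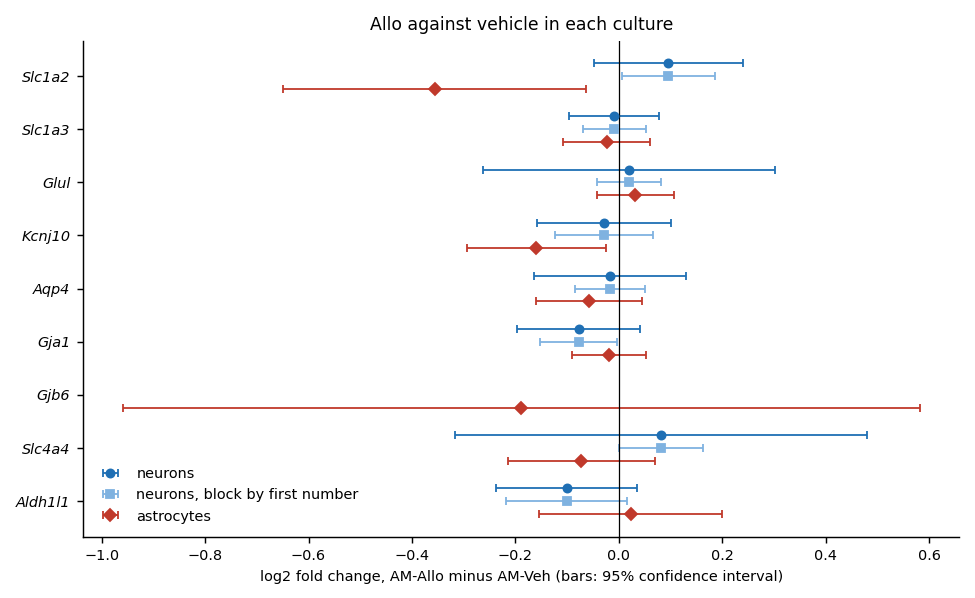
Log2 fold change of AM-Allo over AM-Veh (horizontal axis) with 95% confidence intervals for the 9 genes in neurons, without and with a block by the first part of the replicate number, and in astrocytes. Intervals of Slc1a2 and Kcnj10 lie left of 0 in astrocytes, and the block narrows the neuron intervals of Glul and Slc4a4 most. Gjb6 was too low to test in neurons.

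Around these genes in astrocytes, 2 of 7 genes of the potassium list fell and none rose, among them the sodium pump subunit Atp1b2 (17918 ± 1107 to 16495 ± 251.5, SD, n = 3, log2 fold change −0.12, unadjusted p = 0.0149). Among the 13 water and endfoot genes Hepacam, the adhesion protein that anchors Mlc1, fell (2690 ± 80.1 to 2478 ± 86.0, −0.12, unadjusted p = 0.0127), as 1 of 3 mature markers that fell out of 18, with Pla2g7 (−0.18, unadjusted p = 0.00574) and Sparcl1 (−0.13, unadjusted p = 0.0226). Of 12 immature genes Fabp7 (−0.096, unadjusted p = 0.0257) and Prom1 (−0.21, unadjusted p = 0.0267) fell as well. The bicarbonate carrier Slc4a10 rose (243 ± 15.3 to 285 ± 23.4, 0.23, unadjusted p = 0.0350), the only call of its 9-gene list. None of 10 glutamate-cycle, 5 connexin or 8 fate-regulator genes passed, the largest changes being Slc7a11 at 0.15 and Slc38a3 at −0.14, Gjd2 at 0.074 and Gjb2 at −0.056, and Rorb at −0.27 and Zbtb20 at −0.11. These p-values are unadjusted and by limma, and the adjusted values of the list genes named as having passed were 0.499 to 0.686. List medians were −0.015 for potassium uptake, −0.045 for mature markers and −0.0012 for immature genes. Of the other cells' markers, Cx3cr1 was the only 1 of 8 microglial markers to pass (−0.58, unadjusted p = 0.0117). In that list 4 genes were above 0 and 4 below, with a median of −0.012. Of 5 neuron markers Dcx (−0.36, unadjusted p = 0.0300) and Map2 (−0.13, unadjusted p = 0.0299) fell, and none of 4 mesenchymal markers passed. Gad1, at 1803 and 1874 counts, did not pass (0.056), Slc17a7 and Rbfox3 stayed near 0, and the part of these cells was not tested.

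In neuron cultures none of the 8 genes tested passed the unadjusted threshold, which 5.69% of 15313 genes did (0.0261% adjusted). Slc1a2 was at 2251, 2512, 2541 and 2718 counts in AM-Veh and at 2530, 2549, 2647 and 2985 in AM-Allo, in the order 1-1, 1-2, 2-1 and 2-2. Every AM-Allo library was above its same-numbered AM-Veh library, yet the groups overlapped, as they did for all 8 genes (groups did not overlap for 3.95% of all genes). The log2 fold change of Slc1a2 was 0.096 ± 0.065 (SE; −0.049 to 0.24, unadjusted p = 0.171 by limma, exact permutation p = 0.343). Gja1 was at 18270, 19149, 18327 and 18029 in AM-Veh and at 18215, 18931, 15608 and 17308 in AM-Allo, a log2 fold change of −0.078 (−0.20 to 0.042). Aldh1l1 was at 525, 523, 508 and 513 in AM-Veh and at 513, 502, 431 and 486 in AM-Allo, below the AM-Veh mean in all 4 AM-Allo libraries (−0.10, −0.24 to 0.035, exact permutation p = 0.0571). Slc1a3 (−0.0089), Aqp4 (−0.017), Glul (0.020), Kcnj10 (−0.028) and Slc4a4 (0.082) did not pass either, with an interval of −0.096 to 0.078 for Slc1a3 and of −0.32 to 0.48 for Slc4a4. Over the 8 genes the median was −0.013, beside −0.0015 over all genes.

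The first part of the replicate number was shared by libraries that varied together, and a fit that removed it (a block) made the neuron comparison sharper. With it 11.0% of all genes passed unadjusted and 0.679% adjusted, and 3 of the 8 genes passed unadjusted. Slc1a2 rose (0.096 ± 0.042 SE, unadjusted p = 0.0386, adjusted p = 0.423), Slc4a4 rose (0.082 ± 0.038 SE, unadjusted p = 0.0487, adjusted p = 0.451) and Gja1 fell (−0.078 ± 0.035 SE, unadjusted p = 0.0410, adjusted p = 0.435). With a block by the whole number, Slc1a2 (unadjusted p = 0.0120) and Gja1 (unadjusted p = 0.0341) passed and Slc4a4 did not (unadjusted p = 0.0611). The fall of Gja1 rested on AM-Allo 2-1, a library in which Gja1, Aldh1l1, Kcnj10, Slc1a3 and Glul were all at their lowest of 8. Without that library and with the first-part block, Gja1 had −0.034 (unadjusted p = 0.207), Slc1a2 0.13 (unadjusted p = 0.00816) and Slc4a4 0.11 (unadjusted p = 0.0133). Each gene's difference from its same-numbered vehicle library is in the plot of same-numbered libraries.

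**Figure D5:**
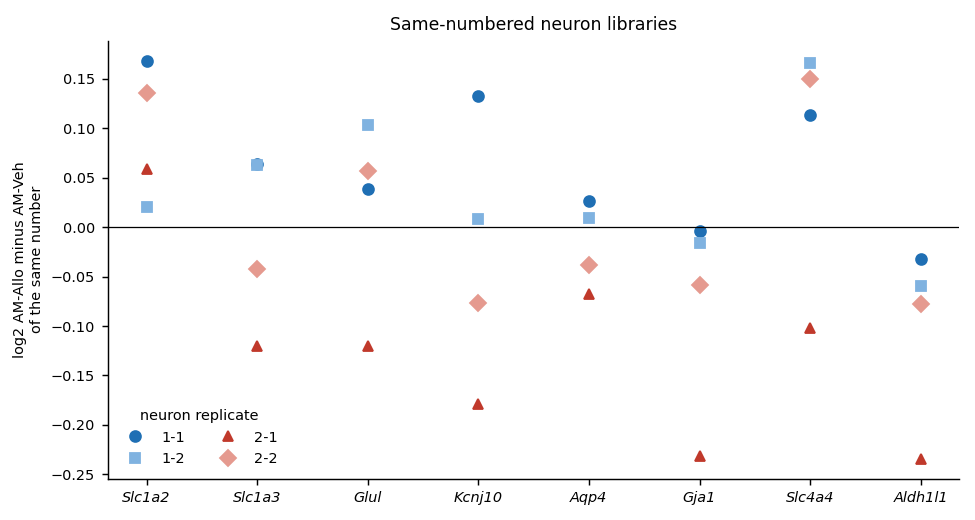
Log2 difference between the AM-Allo and the AM-Veh neuron library of the same number (vertical axis) for 8 genes, with 1 symbol per replicate number. Slc1a2 is above 0 in all 4 numbers and Gja1 and Aldh1l1 are below 0 in all 4, and 2-1 is the lowest point for all genes but Slc1a2.

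The difference between AM-Allo and AM-Veh itself varied with the first part of the number. Slc1a3 was at 57776 and 58735 in AM-Veh 1-1 and 1-2 and at 60405 and 61350 in their AM-Allo counterparts, but at 62381 and 62021 in AM-Veh 2-1 and 2-2 and at 57387 and 60224 in AM-Allo. Its difference was 0.064 on the log2 scale in libraries numbered 1-x and −0.081 in those numbered 2-x (difference −0.145, unadjusted p = 0.00263, adjusted p = 0.237 by limma). Kcnj10, at 1237 and 1309 against 1356 and 1317 in 1-x and at 1272 and 1254 against 1124 and 1189 in 2-x, went from 0.071 to −0.13 (difference −0.198, unadjusted p = 0.0156, adjusted p = 0.384) and Gja1 from −0.010 to −0.15 (difference −0.135, unadjusted p = 0.0363, adjusted p = 0.477). These are 3 of 8 genes, where 9.53% of all genes passed unadjusted, and each group then has 2 libraries on each side. All 3 genes were at their lowest of the 8 libraries in AM-Allo 2-1. Slc1a2 was at 0.095 and 0.097.

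Among the wider lists in neurons the receptor Grm5 of the glutamate cycle rose (1601 ± 108 to 1781 ± 36.6, SD, n = 4, log2 fold change 0.16, unadjusted p = 0.00834), while the folate enzyme Mthfd1 (−0.090, unadjusted p = 0.0316), the mature marker Clu (−0.0895, unadjusted p = 0.0476) and the Notch target Hes1 (−0.20, unadjusted p = 0.0143) fell. These 4 were the only calls of the 9 lists, by limma with unadjusted p, and their adjusted p was 0.651 to 0.871. In the potassium, water, connexin, bicarbonate and immature lists no gene passed, and the largest changes were at low counts, such as Aqp9 at −0.49 (11.97 to 8.29 counts) and Gjd2 at −0.32. With the first-part block Slc38a2, Grm3, Slc1a1, Slc4a8, Slc4a10, Shmt2, Agrn and Mki67 also rose, and Slc4a2, Slc12a2, Slc14a1, Slc39a12, Nes and Vim fell. Vim was the only one of these to pass adjustment (log2 fold change −0.19, unadjusted p = 8.88e-06 with the block), and the listing by the block was chosen after its values were seen. Beside these, 4 of 9 neuron markers rose without a block (Tubb3 0.21, Slc17a7 0.29, Dcx 0.11 and Map2 0.10) and 2 fell (Gad2 −0.45 and Nefl −0.23), and 8 of 9 oligodendrocyte-lineage markers were above 0 with none past the test. With the first-part block the same 4 neuron markers rose and 3 fell, Gad1 (−0.41) in addition, and Gad2 (adjusted p = 0.0178), Gad1 (adjusted p = 0.0393) and Tubb3 (adjusted p = 0.0440) also passed adjustment by limma, which none of the 8 genes did. In that fit 5 of 9 oligodendrocyte-lineage markers rose at an unadjusted p, among them Sox10 (0.21), Mbp (0.19) and Olig2 (0.069), and none passed adjustment. All 4 astrocyte identity genes were slightly below 0 (−0.019 to −0.056) and none passed. The neuron markers summed to 2489 to 2749 CPM in AM-Veh and 2633 to 2900 in AM-Allo, and their part in the values was not tested.

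In neuron cultures these genes also differed between the libraries numbered 1-x and those numbered 2-x, a division the labels do not explain. Slc4a4 was at 4241, 4237, 4588 and 4756 in the 4 libraries numbered 1-x and at 3164, 2815, 2949 and 3123 in those numbered 2-x, a log2 difference of −0.56 ± 0.038 (SE, adjusted p = 8.13e-08 by limma). Glul was at 34561, 33563, 35507 and 36046 and at 27644, 26120, 25442 and 27178, a difference of −0.39 ± 0.029 (SE, adjusted p = 2.06e-07). Neither gene overlapped between the number sets. Aqp4 was higher in 2-x, at 24279 ± 972 and 27364 ± 1038 (SD, n = 4, 0.17, adjusted p = 0.00127), and so was Slc1a2, at 2461 ± 140 and 2723 ± 189 (0.15, adjusted p = 0.0270). Gja1 was lower (−0.11, adjusted p = 0.0433), and Kcnj10 passed only unadjusted (−0.11, unadjusted p = 0.0263, adjusted p = 0.110), a call lost without any 1 of the 4 AM-Allo libraries (unadjusted p up to 0.116). Slc1a3 (0.022) and Aldh1l1 (−0.093) did not pass. In all, 6 of 8 genes passed unadjusted and 5 adjusted, where 29.3% and 17.2% of all genes did, and 3 did not overlap, as for 19.6% of all genes. Without AM-Allo 1-1, and likewise without AM-Allo 1-2, the adjusted count was 3.

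Other genes moved with the number set. Gfap was at 73158 ± 4372 (SD, n = 4) in 1-x and 112247 ± 5547 (SD, n = 4) in 2-x (0.62), S100b was higher (0.23), Aldoc was lower (−0.21) and Sox9 did not pass (0.084). Slc7a11 went from 2275 ± 138 to 10812 ± 1330 (2.24), Slc39a12 from 168 to 496 (1.55), Aldh1l2 from 321 to 641 (0.99) and Pla2g7 from 1626 to 3117 (0.93), while Glud1 (−0.44) and Hes5 (−0.72) were lower, each with an adjusted p of 3.18e-06 or below by limma. Of the mature list 8 genes were higher and 4 lower of 20, and of the immature list 2 were higher (Vim 0.49 and Nes 0.37) and 5 lower, among them the division genes Mki67 (−0.41) and Top2a (−0.48). Mbp (−0.96), Col1a1 (−2.11) and other markers of further cell types differed too, and their part was not tested. In the authors' variance-stabilized table this difference is missing: the SD over genes of the 2-x minus 1-x difference was 1.4e-09 there and 0.255 in log2 normalized counts.

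The genes whose level followed the mean log2 level of the tested members most closely over the 8 neuron libraries were Capn15 (Pearson r = 0.984), Bora (0.982) and Ptprz1 (0.978), out of 15305 compared. Over the 6 astrocyte libraries they were Creg1 (0.993), Zfp709 (0.990) and Stxbp3 (0.990), out of 15370. The mean spanned only 0.24 and 0.20 on the log2 scale, the libraries share the number sets and treatments, and the values are a description.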

How the data were processed

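RNA from 14 rat cultures was sequenced by the authors from poly(A)-selected libraries, quantified with Salmon 0.14 on Ensembl release 95, summed to genes with tximport and normalized with DESeq2 1.18.1. The deposited signal values are the authors' normalized counts, and the deposited log2-like values are the authors' variance-stabilized (VST) values. Normalized counts were treated as whole reads times a factor per library, which is approximate. Near whole multiples lay 84.6 to 95.0% of low values in neuron libraries and 69.7 to 94.9% in astrocyte libraries. The lowest share was in astrocyte AM-Allo 3, the library with the highest estimated depth. The neuron and the astrocyte table were normalized separately by the authors, so tests were made only within a table. Because the files hold normalized values, limma 3.58.1 in R 4.3.3 (lmFit, then eBayes with trend) was used on log2(normalized count + 1) in place of a count test, for genes with a mean of at least 10, with Benjamini-Hochberg adjustment over all genes of the table. Fold changes are on that log2 scale, which understates the change of low genes. Calls are given at an unadjusted p of 0.05, as in the study, and at an adjusted p of 0.05. Every p without another name is from limma, and single genes were also compared by two-sided exact permutation tests in SciPy 1.17.1, which cannot go below 0.0286 for 4 against 4 or 0.1 for 3 against 3. The depth limits precision mainly for genes near 10 counts, and it was estimated from the step between low values.

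Same-numbered neuron libraries deviated together (correlations over genes of 0.229 to 0.296), and so did those sharing only the first part (0.185 to 0.236). Across first parts the correlations were −0.319 to −0.150. The first part of the number thus groups libraries in the data, while pairing by the whole number is less clear. The labels do not say what the number marks. Blocked values are given beside neuron results where they change a call. The members and lists were chosen with earlier results of these data known. The named genes are the 9 members, up to 4 genes with the lowest p among those that passed in each list (the 2 with the largest change where none passed), up to 3 genes of highest level per marker list, and the 3 genes most correlated with the members. Other genes of the lists were named after their values were seen, among them those of the comparison between cultures. Gene symbols turned into dates (21 and 24) and repeated symbols (1 and 2) took no part in the lists. List genes without an entry under their symbol were not used here. Values of some list genes are not reported here. The procedure was tested on simulated data. Alternatives changed the pseudocount, filter, normalization, variance model, libraries and block.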

Additional observations from a re-analysis of the deposited data

Results flagged for a closer look

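The log2 fold change of Slc1a2 under Allo had opposite signs in the 2 kinds of culture. It was 0.0959 in neuron cultures, with all 4 AM-Allo libraries above the AM-Veh mean, but did not pass there (unadjusted p = 0.171 by limma, interval −0.049 to 0.24), and among the settings run it passed only with a block by replicate number (unadjusted p = 0.0386 for the first part) and with VST values (unadjusted p = 0.0346). In astrocyte cultures it was −0.356, with all 3 AM-Allo libraries below the AM-Veh mean (unadjusted p = 0.0211, adjusted p = 0.654). In neurons the VST values already lack the difference between number sets, so that setting is not separate from the block. The difference between the cultures was not tested, since the tables were normalized separately, the media differed and treatment ran for 16 h and 24 h.

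In neuron cultures the change under Allo differed between libraries numbered 2-x and 1-x by −0.145 on the log2 scale for Slc1a3, −0.198 for Kcnj10 and −0.135 for Gja1, each past an unadjusted p of 0.05 for the interaction in limma and none past adjustment (adjusted p = 0.237, 0.384 and 0.477). Each arm of this comparison has 2 libraries, and AM-Allo 2-1 was the lowest of the 8 for all 3 genes.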

How the results depend on the processing

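Slc1a2 and Kcnj10 in astrocytes kept their direction and their call under every planned setting apart from leaving out libraries (log2 fold change −0.452 to −0.243 for Slc1a2 and −0.196 to −0.137 for Kcnj10), where 0 to 2 of the 9 genes passed. VST values, which compress low counts, gave −0.0901 for Slc1a2 and −0.0711 for Kcnj10. Astrocyte numbers did not pair libraries (correlations 0.0241, −0.0070 and 0.0117), and the replicate block gave p = 0.0286 for Slc1a2 and p = 0.0353 for Kcnj10 by limma. Genes at an adjusted p of 0.05 in astrocytes, 1 in the reported fit, were 0 with a minimum mean of 50, 0 without trend, 4 with robust variances, 17 with the replicate block and 1 to 72 with a library left out, 72 without AM-Allo 1. Directions of weak changes turned without single astrocyte libraries: Slc1a3 −0.0464 to 0.00612, Gjb6 −0.430 to 0.0418, Aldh1l1 −0.0273 to 0.0705, Gjd2 −0.0682 to 0.191 and Gjb2 −0.186 to 0.0795. In neurons the adjusted count of 4 became 158 with VST values, 0 without trend, 0 to 4 with a library left out, 104 with the first-part replicate block, 93 with the whole-number block and 46 with the first-part block without AM-Allo 2-1. Of the 8 genes 0 passed in the reported fit, 3 with VST values and with the first-part block, 2 with the whole-number block and with the block without AM-Allo 2-1, and 0 to 1 with a library left out (Gja1 without AM-Allo 1-2). Neuron directions turned for Aqp4 with quantile normalization (0.00427), and without AM-Allo 2-1 and with the block for Slc1a3 (0.0195), Kcnj10 (0.00754) and Aqp4 (0.00827). With single libraries left out the neuron values ran from −0.0287 to 0.0111 for Slc1a3, −0.0578 to 0.110 for Glul, −0.0705 to 0.0199 for Kcnj10, −0.0699 to 0.0280 for Aqp4 and −0.0304 to 0.200 for Slc4a4. With VST values 1 of the 8 had groups without overlap. Between number sets VST values gave 0 genes and 0 of the 8 at either threshold, since the difference is missing from that table. The neuron fit of Allo to VST values does not account for that missing difference, so its p-values by limma may be too low. There were 1722 genes and 2 of the 8 at an adjusted p of 0.05 without trend, 3 of the 8 without the treatment term and 3 to 5 with a library left out, and Slc1a3 turned with quantile normalization (−0.00921). Between cultures, division by Slc1a3 gave a median of 0.335 and turned Glul (−0.380). The cause of these moves was not tested, apart from the missing set difference in VST values. Depth limits Gjb6, which is near the level of single reads in neurons.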
